A study of Homo sapiens with 4 samples.

Results

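The DNA replication and S-phase genes described here are 55 named genes of the 19729 genes in the deposited values. They were listed by name, for what their products are known to do, with earlier results of these data known, and were divided into 9 groups by role: the MCM2-7 helicase ring, helicase activation, origin licensing, primase and polymerases, the sliding clamp and its loader, Okazaki fragment processing and single-strand binding, deoxynucleotide synthesis, chromatin assembly and methylation maintenance, and S-phase entry and checkpoint. They were followed in HT-29, an established human colorectal cancer cell line that the labels describe as microsatellite stable (MSS), BRAF-V600E and APC-mutant, so that both groups carried truncated APC before any silencing. Lentivirus had brought into the cells an shRNA switched on by doxycycline (DOX), either one that targets APC (APC shRNA) or a non-silencing one (NonS), and transduced pools were used within a few passages. Both groups received 500 ng/ml DOX for 72 h, so DOX itself and the induced expression of an shRNA were shared. RNA-Seq of polyadenylated RNA was done on biological duplicates, I and II, giving 2 libraries per group and 4 in all.

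Before S phase, the origin recognition complex with CDC6 and CDT1 loads the MCM2-7 ring onto DNA in an inactive form, and CDC45 and the GINS complex then turn it into the moving helicase. Behind the helicase, primase with polymerase alpha starts each strand, the clamp loader places the sliding clamp PCNA, and polymerases delta and epsilon copy the DNA with deoxynucleotides supplied by ribonucleotide reductase and thymidylate synthase. Many of these genes are transcribed around the entry into S phase by E2F factors, which RB proteins hold in check, and cells that divide quickly, as cells of the intestinal crypt and of colorectal tumors do, keep them high.

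Because shared E2F control is the textbook feature of this group, the 250 bases before the RefSeq start (GRCh38.p14, all on the minus strand, printed 5′ to 3′) are shown for 5 members from separate steps: MCM6 of the helicase ring (chr2:135876444-135876693), the clamp PCNA (chr20:5126623-5126872), the leading-strand polymerase POLE (chr12:132687343-132687592), the transcription factor E2F1 (chr20:33686386-33686635) and, as one without a match, the thymidine salvage kinase TK1 (chr17:78187205-78187454). Capitals mark letters that match 1 of 4 spellings of the E2F motif (TTTCCCGC, TTTGGCGC, TTTCGCGC or TTTGCCGC) on either strand.
MCM6: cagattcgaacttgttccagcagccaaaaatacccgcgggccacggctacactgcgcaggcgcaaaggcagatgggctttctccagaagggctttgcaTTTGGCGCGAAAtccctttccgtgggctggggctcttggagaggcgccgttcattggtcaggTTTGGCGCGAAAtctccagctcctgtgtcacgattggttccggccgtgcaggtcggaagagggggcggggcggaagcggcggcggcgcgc
PCNA: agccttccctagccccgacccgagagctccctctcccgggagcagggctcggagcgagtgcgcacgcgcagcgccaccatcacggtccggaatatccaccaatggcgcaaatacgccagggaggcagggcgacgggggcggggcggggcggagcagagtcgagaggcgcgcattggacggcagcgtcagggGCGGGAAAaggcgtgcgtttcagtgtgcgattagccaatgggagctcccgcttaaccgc
POLE: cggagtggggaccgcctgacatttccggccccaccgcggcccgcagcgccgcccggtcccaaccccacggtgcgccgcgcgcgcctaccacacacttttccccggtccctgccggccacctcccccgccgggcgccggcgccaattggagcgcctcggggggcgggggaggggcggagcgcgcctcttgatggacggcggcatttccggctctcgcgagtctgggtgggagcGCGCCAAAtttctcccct
E2F1: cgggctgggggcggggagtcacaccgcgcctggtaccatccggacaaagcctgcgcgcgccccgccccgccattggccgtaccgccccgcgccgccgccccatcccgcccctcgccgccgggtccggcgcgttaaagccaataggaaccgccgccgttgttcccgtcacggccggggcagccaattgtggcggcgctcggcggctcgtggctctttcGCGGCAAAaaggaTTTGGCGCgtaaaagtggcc
TK1: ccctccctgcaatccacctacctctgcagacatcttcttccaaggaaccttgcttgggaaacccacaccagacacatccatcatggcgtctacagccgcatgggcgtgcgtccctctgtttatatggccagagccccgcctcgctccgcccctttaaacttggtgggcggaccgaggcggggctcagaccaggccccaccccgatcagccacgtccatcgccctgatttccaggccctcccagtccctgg
MCM6 held 4 matches, made of 2 copies of TTTGGCGCGAAA in each of which a match on one strand overlaps a match on the other. E2F1 held 2 matches, PCNA and POLE 1 each, and TK1 none. Such a match is a description of letters and not a measured binding site.

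RefSeq promoters of 250 bases before to 50 after the start were at hand for 47 of the 55 members. MCM4, MCM5, GINS4, POLD3, RPA2, RPA3, ATAD2 and CCNE2 had no entry. For members and tested genes only the first listed promoter of a gene was searched, so matches at other starts would be missed. The share of all promoters used every entry. The E2F letters were found in 21 of the 47 (44.7%), in 6.1% of the promoters of 4289 tested genes and in 3.3% of all 35116 promoters. All 4 MCM2-7 members with an entry held them, as did 3 of 5 members of helicase activation, 3 of 5 of chromatin assembly and methylation maintenance and 4 of 9 of the polymerases. Of the deoxynucleotide synthesis genes only TYMS held them (1 of 5). The CCAAT letters, searched on both strands, were more evenly spread, with 53.2% of the members, 38.7% of the tested genes and 34.6% of all promoters. The letters CTTTGAT, a core of the TCF motif through which Wnt signals act, were in 0 of the 47 member promoters, 1.2% of the tested genes and 2.6% of all promoters.

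The deposited values are whole numbers without a stated scale, with sums of 398338 to 413595 per library. Genes whose 2 replicate values summed to at least 10 and under 40 varied less between replicates than read counts would. Their variance was 0.474 times the Poisson variance in NonS (4632 genes) and 0.345 times in APC shRNA libraries (4531 genes). Genes with higher values were not included in that ratio, and some spread widely, such as KRT19 with 539 and 836 in NonS. The depth in reads is thus unknown and no counting interval is given. Log2(value + 1) was compared with limma over 5376 genes with a mean of at least 10, and a gene was called at a Benjamini-Hochberg adjusted p under 0.05. Differences are APC shRNA minus NonS on this scale, which understates the change of low genes. The smallest p that exact two-sided permutation of 2 against 2 libraries allows for 1 gene is 0.333, so such a test was not used. APC itself was listed at 3 in NonS I and at 0 in the other 3 libraries, too low to check the silencing. Its known downstream readout did separate the groups: AXIN2, a feedback inhibitor of Wnt signaling, had values of 16 and 22 in the NonS libraries and 124 and 178 in the APC shRNA libraries (log2 difference 2.92, limma adjusted p = 0.0452). The epithelial markers EPCAM, KRT8, KRT18, KRT19 and KRT20 were between 180 and 2083 in every library, while the intestinal factors CDX1 and CDX2 lay between 0 and 4. Of 10 fibroblast, endothelial and blood markers, 9 were at 0 in every library and HBB was at 0 or 1.

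After APC silencing, the replication and S-phase genes were lower nearly throughout. The mean was lower in 55 of the 55 members, where 41.9% of the 12799 genes with any value above 0 had a lower mean. Both APC shRNA libraries lay below both NonS libraries in 52 of the 55, against 19.1% of those 12799 genes, and the 3 members whose libraries overlapped were DUT, CCNE2 and BRCA2. Of the 55, 40 passed the filter on the mean and were tested. In limma 16 of the 40 fell and 0 rose, against 3.7% of all genes tested that fell and 4.33% that rose. A further 7 members had an adjusted p between 0.05 and 0.06. At an unadjusted p under 0.05, 37 of the 40 were lower and 0 higher, against 15.8% of all genes tested that were lower.

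The filter bears on these counts, because 7 of the 40 passed it with a NonS mean of at least 10 and an APC shRNA mean under 10, and a gene of that kind had to differ. The called members CDC6 and CHAF1A were of that kind, as were GINS2, PRIM1, POLD3, RFC4 and CCNE1, which were not called. The counts over all 55 members do not depend on the filter. Among the tested members the libraries did not overlap, with APC shRNA lower, in 39 of 40 and with APC shRNA higher in 0, where 27.5% and 33.0% of all tested genes did so. The median log2 difference of the 40 was -0.77, beside a median of 0.03 over all genes tested. Without the added 1, the APC shRNA mean stood at a median of 56.7% of the NonS mean over the 40. The individual differences ran from -1.94 (ATAD2) to -0.22 (RPA2), and the APC shRNA mean was under 50% of the NonS mean in 8 of the 40.

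Both APC shRNA libraries showed the lower values. Taken against the NonS mean, the median deviation of the 40 tested members was 0.06 in NonS I, -0.06 in NonS II, -0.70 in APC shRNA I and -0.84 in APC shRNA II, with a pooled SD within groups of 0.091 over these 4 medians. Comparing libraries with the same number, the median difference was -0.76 for I and -0.78 for II, and APC shRNA was lower in 40 and 39 of the 40 members. The exception was DUT, with 14 in both libraries numbered II. The single calls were less stable than the direction. With any 1 of the 4 libraries left out, no member kept its call in limma, although the median difference then stayed between -0.84 and -0.70. In bulk RNA, a smaller share of cells in S phase and less of these transcripts per cell cannot be told apart.

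**Figure D1:**
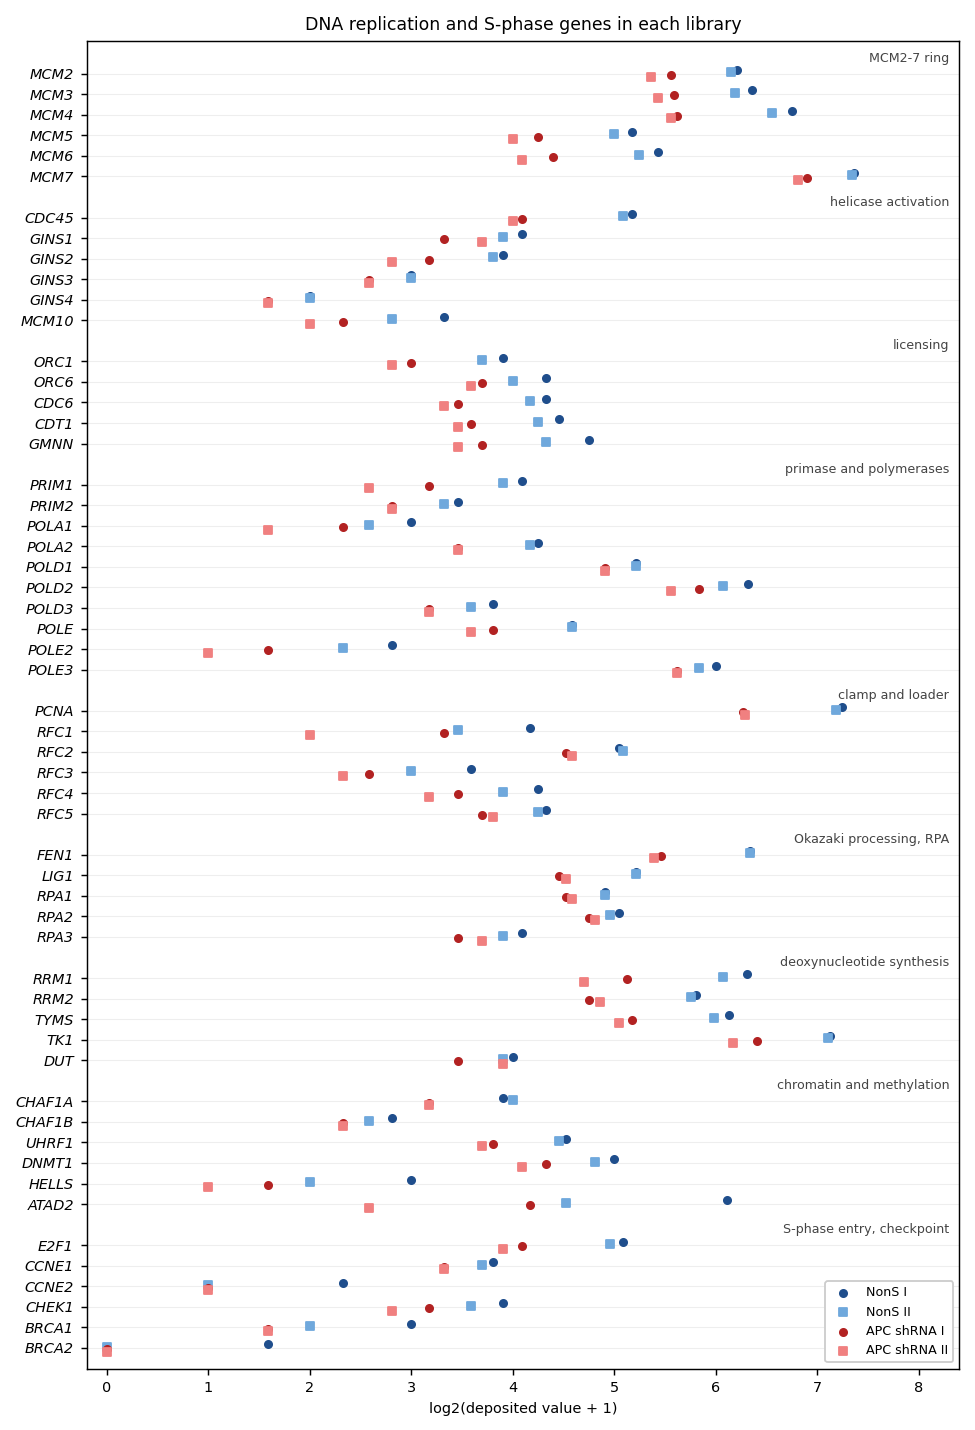
Value of each of the 55 members in each of the 4 libraries, as log2(deposited value + 1), grouped by role (circles: replicate I, squares: replicate II, blue: NonS, red: APC shRNA). The red points lie left of the blue points in 52 of the 55 rows, and overlap them for DUT, CCNE2 and BRCA2.

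**Figure D2:**
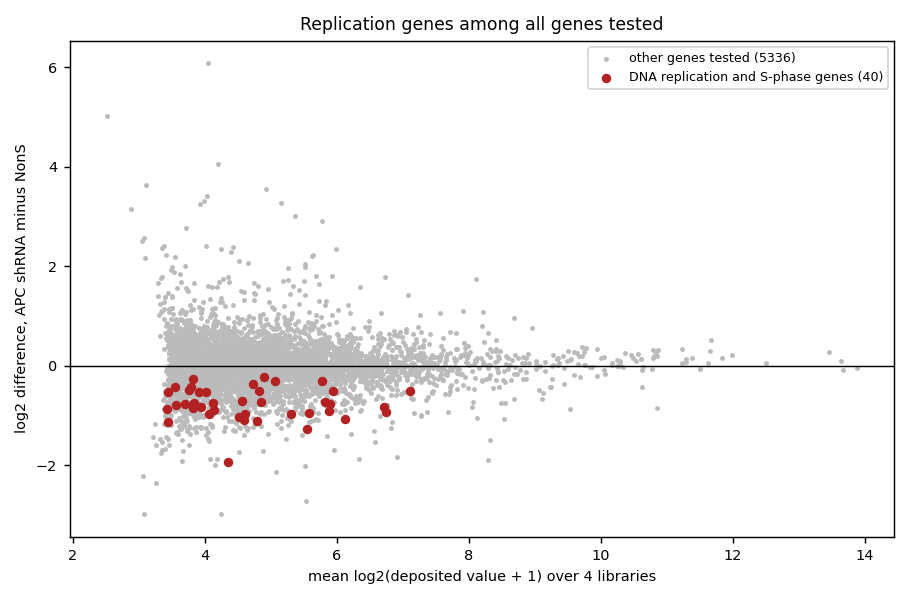
Log2 difference of APC shRNA minus NonS against the mean log2(deposited value + 1) over the 4 libraries for the 5376 genes tested, with the 40 tested members in red. All 40 members lie below 0, between -1.94 and -0.22.

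The 6 subunits of the MCM2-7 ring, the hexamer that unwinds the parental DNA, were lower in both APC shRNA libraries without exception. Their median difference was -0.86, and MCM4 and MCM7 fell while the other 4 had adjusted p-values of 0.0503 to 0.0518 in limma. Of all genes tested, 27.5% were lower without overlap and 3.7% fell. MCM4 was 107 in NonS I, 93 in NonS II, 48 in APC shRNA I and 46 in APC shRNA II, and pairs of values below keep the order of I and II. Its mean went from 100.0 ± 9.90 (SD, n = 2) to 47.0 ± 1.41 (SD, n = 2), a log2 difference of -1.07 (standard error 0.0972, limma adjusted p = 0.0441). The groups did not overlap, and the gap between them exceeded the spread within either.

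MCM7 (chr7:100092728-100101940) was 164 and 161 in NonS and 118 and 111 in APC shRNA libraries, the smallest change of the ring at -0.50 (standard error 0.0629, limma adjusted p = 0.0487). The APC shRNA libraries kept 70.5% of the NonS mean, and the groups were well apart. MCM6 (chr2:135839626-135876426), whose promoter with 4 E2F matches is printed above, was 42 and 37 in NonS and 20 and 16 in APC shRNA libraries, the largest difference of the ring at -1.10 (standard error 0.149, limma adjusted p = 0.0515). Its groups did not overlap, but its adjusted p missed the threshold. MCM2 was 73 and 70 against 46 and 40, MCM3 was 81 and 72 against 47 and 42, and MCM5 was 35 and 31 against 18 and 15, all without overlap. By these means of 2 libraries, the subunits stood at 45.6% (MCM6) to 70.5% (MCM7) of their NonS mean. Differences between subunits were not tested.

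Helicase activation was led by CDC45, the factor that joins the loaded ring and switches it on. CDC45 (chr22:19479459-19520612) was 35 and 33 in NonS and 16 and 15 in APC shRNA libraries, at -1.085 (standard error 0.067, limma adjusted p = 0.0423). The libraries of each group lay within 2 units of each other and the groups were far apart. Of the GINS subunits, which bind beside CDC45, GINS2 was 14 and 13 against 8 and 6 and GINS1 was 16 and 14 against 9 and 12. GINS1 had the smallest difference of the 3 tested genes, -0.49 (standard error 0.175, limma adjusted p = 0.166), with no overlap but a wide spread between its APC shRNA libraries. It was -0.30 without APC shRNA I and -0.68 without APC shRNA II. GINS3, GINS4 and MCM10, a factor that assists helicase activation, were under the filter: GINS3 was 7 in both NonS and 5 in both APC shRNA libraries, GINS4 was 3 against 2 in the same way, and MCM10 was 9 and 6 against 4 and 3.

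Among the licensing genes, CDC6 fell, and the loading partner CDT1 and its inhibitor geminin (GMNN) were lower beside it. CDC6 (chr17:40287633-40304657), which recruits the ring to the origin, was 19 and 17 in NonS and 10 and 9 in APC shRNA libraries, at -0.86 (standard error 0.096, limma adjusted p = 0.0465). CDC6 passed the filter through its NonS mean alone, so its call depends on a filter that favors a difference. CDT1 was 21 and 18 against 11 and 10 (limma adjusted p = 0.0501). GMNN was 26 and 19 against 12 and 10, the largest of the tested licensing genes at -0.96 (standard error 0.203, limma adjusted p = 0.0825), with most of its spread in NonS. Thus the gene that promotes loading and the gene that blocks it were both lower, with no overlap in either. Of the origin recognition subunits, ORC1 was 14 and 12 against 7 and 6, just under the filter, and ORC6 was 19 and 15 against 12 and 11, the smallest of the tested licensing genes at -0.52 (standard error 0.145, limma adjusted p = 0.115).

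Primase and the replicative polymerases covered a range of differences, which were not tested against each other. All 10 were lower without overlap, 7 were tested, 2 fell, and the median difference was -0.53. Of all genes with any value above 0, 19.1% were lower without overlap, and 3.7% of all genes tested fell. POLE (chr12:132623753-132687365), the catalytic subunit of the leading-strand polymerase epsilon, was 23 in both NonS libraries and 13 and 11 in the APC shRNA libraries, at -0.89 (standard error 0.101, limma adjusted p = 0.0465). POLA2 (chr11:65261762-65305589), the B subunit of polymerase alpha, was 18 and 17 against 10 and 10, at -0.75 (standard error 0.0591, limma adjusted p = 0.0423). It shares 2012 exonic bases on its strand with the annotated gene AP000944.2, and how reads from those bases were assigned is not given.

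The primase subunit PRIM1 had the largest difference of the tested genes of this group, with 16 and 14 against 8 and 5, at -1.12 (standard error 0.25, limma adjusted p = 0.0878). PRIM1 and POLD3 passed the filter through their NonS means alone. Of the lagging-strand polymerase delta, the catalytic subunit POLD1 was 36 in both NonS and 29 in both APC shRNA libraries (difference -0.30, limma adjusted p = 0.0601), POLD2 was 79 and 66 against 56 and 46, and POLD3 was 13 and 11 against 8 and 8. POLE3, a histone-fold subunit of polymerase epsilon, was 63 and 56 against 48 and 48, the smallest difference of the tested genes at -0.30 (standard error 0.0829, limma adjusted p = 0.113). The APC shRNA mean of POLE3 was 80.7% of the NonS mean, and that of POLE in the same enzyme 52.2%. The other members were under the filter: PRIM2 at 10 and 9 against 6 and 6, POLA1 at 7 and 5 against 4 and 2, and POLE2 at 6 and 4 against 2 and 1.

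PCNA, the ring that tethers polymerases to DNA, fell with little spread between replicates. PCNA (chr20:5114953-5126626) was 150 and 144 in NonS and 76 and 77 in APC shRNA libraries. Its mean went from 147.0 ± 4.24 (SD, n = 2) to 76.5 ± 0.707 (SD, n = 2), a difference of -0.93 (standard error 0.0564, limma adjusted p = 0.0423). Of the loader that opens it, RFC2 fell less: RFC2 (chr7:74231499-74254458) was 32 and 33 against 22 and 23, at -0.51 (standard error 0.0558, limma adjusted p = 0.0463). RFC5 was 19 and 18 against 12 and 13, and RFC4 was 18 and 14 against 10 and 8. RFC1, the large subunit, was 17 and 10 against 9 and 3, and RFC3 was 11 and 7 against 5 and 4, both under the filter. In RFC1 the replicates differed almost as much as the groups, and its lowest NonS value lay 1 unit above its highest APC shRNA value.

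Of the enzymes that finish the lagging strand, both members fell, where 3.7% of all genes tested did. FEN1 (chr11:61792637-61797244), which cuts the displaced flap of an Okazaki fragment, was 80 in both NonS libraries and 43 and 41 in the APC shRNA libraries, at -0.91 (standard error 0.0562, limma adjusted p = 0.0423). LIG1 (chr19:48115445-48170603), which seals the nick, was 36 in both NonS libraries and 21 and 22 in the APC shRNA libraries, at -0.72 (standard error 0.0537, limma adjusted p = 0.0423). RPA, the trimer that coats single-stranded DNA, lay at the other end of the range. RPA1 was 29 and 29 against 22 and 23, RPA2 was 32 and 30 against 26 and 27, and RPA3 was 16 and 14 against 10 and 12. None of the RPA subunits was called in limma (adjusted p from 0.0582 to 0.134). RPA2 had the smallest difference of all 40 tested members, -0.22 (standard error 0.063, limma adjusted p = 0.12), with no overlap between the groups.

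Deoxynucleotide synthesis had the lowest median difference of the 9 groups, -0.95, and 3 of its 5 members fell, against 3.7% of all genes tested. RRM2 (chr2:10120698-10131419), the small subunit of ribonucleotide reductase that is made in S phase, was 55 and 53 in NonS and 26 and 28 in APC shRNA libraries, at -0.97 (standard error 0.0667, limma adjusted p = 0.0423). It shares 1077 exonic bases on its strand with the annotated gene AC007240.1. The large subunit RRM1 was 78 and 66 against 34 and 25, a larger difference of -1.27 (standard error 0.202, limma adjusted p = 0.0606) with a wider spread. Both subunits were clear of overlap, and RRM1 stood at 41.0% of its NonS mean.

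TYMS (chr18:657604-673578), which makes thymidylate anew, was 69 and 62 against 35 and 32, at -0.95 (standard error 0.0926, limma adjusted p = 0.0452). TK1 (chr17:78174075-78187233), which salvages thymidine and whose promoter without E2F letters is printed above, was 139 and 137 against 84 and 71, at -0.83 (standard error 0.108, limma adjusted p = 0.0496). The genes for the synthesis and the salvage route were thus lower side by side. DUT, which keeps uracil out of DNA, was 15 and 14 against 10 and 14 and was the one tested member whose libraries overlapped (difference -0.27, standard error 0.189, limma adjusted p = 0.375). Its difference rested on APC shRNA I, and was -0.05 without that library and -0.49 without APC shRNA II.

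Chromatin assembly and methylation maintenance act just behind the fork. CHAF1A (chr19:4402662-4445018), a subunit of the CAF-1 complex that places new histones, was 14 and 15 in NonS and 8 and 8 in APC shRNA libraries, at -0.78 (standard error 0.0652, limma adjusted p = 0.0428). Like CDC6, CHAF1A passed the filter through its NonS mean alone. UHRF1 (chr19:4903080-4962154), which brings the maintenance methyltransferase to hemimethylated DNA, was 22 and 21 against 13 and 12, at -0.74 (standard error 0.0691, limma adjusted p = 0.0452). DNMT1, that methyltransferase, was 31 and 27 against 19 and 16, the smallest difference of the tested genes here at -0.70 (standard error 0.13, limma adjusted p = 0.0705). These 3 genes were clear of overlap.

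ATAD2, a bromodomain protein bound to chromatin, had the largest difference of all members and the largest error. It was 68 in NonS I, 22 in NonS II, 17 in APC shRNA I and 5 in APC shRNA II, at -1.94 (standard error 0.895, limma adjusted p = 0.227). Each group held a high library numbered I and a low library numbered II, the groups did not overlap, and the difference was -2.73 without NonS II or APC shRNA I and -1.15 without NonS I or APC shRNA II. CHAF1B was 6 and 5 against 4 and 4 and the chromatin remodeler HELLS 7 and 3 against 2 and 1, both under the filter.

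Of the genes for S-phase entry and its checkpoint, E2F1 fell. E2F1 (chr20:33675683-33686404), the activator of many of these genes and a carrier of E2F letters in its own promoter, was 33 and 30 in NonS and 16 and 14 in APC shRNA libraries. Its mean went from 31.5 ± 2.12 (SD, n = 2) to 15.0 ± 1.41 (SD, n = 2), a difference of -1.02 (standard error 0.101, limma adjusted p = 0.0452). Cyclin E1 (CCNE1), which with CDK2 drives the entry into S phase, was 13 and 12 against 9 and 9, at -0.43 (standard error 0.0688, limma adjusted p = 0.0608). CCNE1 passed the filter through its NonS mean alone. The checkpoint kinase CHEK1 was 14 and 11 against 8 and 6. The repair genes BRCA1 and BRCA2, which also protect stalled forks, were 7 and 3 against 2 and 2 and 2 and 0 against 0 and 0, and cyclin E2 (CCNE2) was 4 and 1 against 1 and 1. At these values 1 unit of rounding is a large part of the value.

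**Figure D3:**
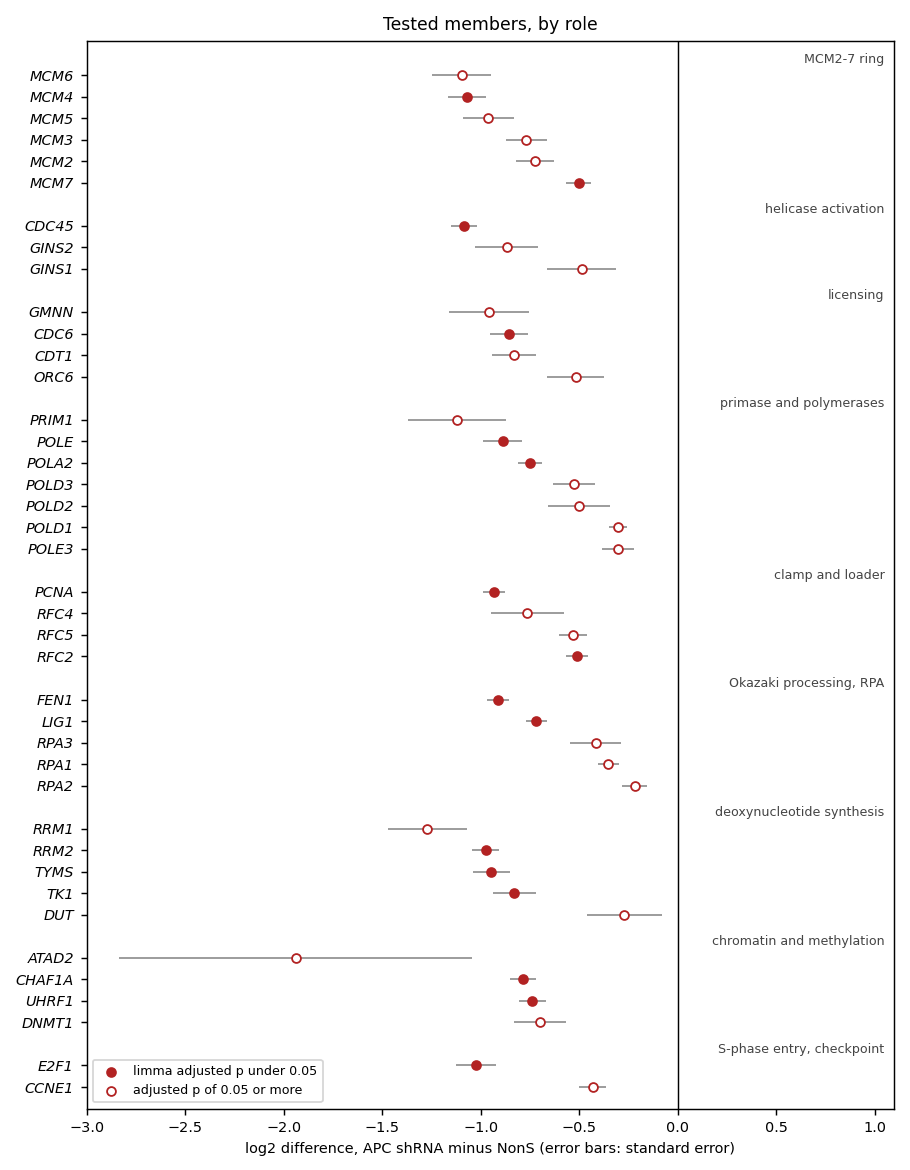
Log2 difference of APC shRNA minus NonS with its limma standard error for the 40 tested members, grouped by role and sorted within each group (filled: limma adjusted p under 0.05). All 40 lie left of 0, the 16 filled points between -1.085 and -0.50, and ATAD2 has by far the widest bar.

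The groups by role overlapped widely. The median difference over tested members was -0.86 for the MCM2-7 ring, -0.87 for helicase activation, -0.84 for licensing, -0.53 for primase and polymerases, -0.65 for the clamp and its loader, -0.42 for Okazaki processing and RPA, -0.95 for deoxynucleotide synthesis, -0.76 for chromatin and -0.73 for S-phase entry, from 2 to 7 tested genes each. Differences between these medians were not tested. Those of helicase activation and of primase and polymerases were the values of GINS2 and POLD3, which passed the filter through their NonS means alone. Replicate libraries also differed along GC content, given by gene. Across the 40 tested members, the Spearman correlation of GC content with the difference of NonS II minus NonS I was 0.465, that with APC shRNA II minus I was -0.04, and that with the difference between groups was 0.17, each over the same 4 libraries. Over 5364 tested genes the same correlations were 0.486, 0.08 and 0.24, so the drift along GC content was not particular to the members. Of the 3 members with a GC content under 42%, 0 were called, at a median difference of -1.12. From 42% to 50% the median was -0.81 with 5 of 18 called, and at 50% or more it was -0.75 with 11 of 19 called. NonS II lay below NonS I in 17 of those 18 members and in 13 of those 19. Of all genes tested, at any GC content, 3.7% fell, and the share within each GC class was not computed. With GC content correction, 28 members were called lower, beside 475 of 5364 genes, and the median difference of the members was -0.835. What part GC content has in the single calls was not tested. The 31 members with a GC content of at least 45%, taken alone, had a median of -0.76 with 16 called. This bound was chosen after seeing the data. It lies under the GC content of every called member, the lowest being PCNA at 45.3%, so it could remove no call.

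In all, 11 members share exonic bases on their own strand with another annotated gene, called members among them. Whether the counting used the strand is not given in the sources used here. Members that share exons only on the opposite strand were kept in what follows. Among them were the called TYMS (967 bases with ENOSF1) and MCM7 (392 bases with AP4M1). Without the tested members that share exons on their own strand, 13 of 33 fell, against 3.7% of all genes tested, with a median difference of -0.77.

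Of 48 other DNA replication genes, a list of licensing, fork, repair and nucleotide genes that are not among the 55, 44 had a lower mean and 2 a higher one. A lower mean was found in 41.9% of the 12799 genes with any value above 0. Tested were 25 of the list, with a median difference of -0.53. Of these, 5 fell and 0 rose in limma, against 3.7% and 4.33% of all genes tested. The histone chaperone ASF1B was 33 and 35 in NonS and 16 and 16 in APC shRNA libraries (-1.04, limma adjusted p = 0.0423). The helicase RECQL4 was 35 and 33 against 18 and 15 (-1.005, limma adjusted p = 0.0465), and the thymidylate kinase DTYMK 54 and 53 against 32 and 28 (-0.82, limma adjusted p = 0.0463). The histone chaperone NASP also fell, with 54 and 55 against 41 and 40 (-0.42, limma adjusted p = 0.0483). The exceptions among the tested genes were CHTF8, a clamp loader subunit, at 47 and 52 against 55 and 61, and RNASEH2C, a subunit of the RNase that cuts RNA joined to DNA, at 16 in every library. Among the untested genes, the histone chaperone ASF1A was 12 and 6 against 11 and 9, and MCM9 was 2 in every library.

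Of 20 genes of the RB and E2F family and of the S-phase kinases, 14 had a lower and 6 a higher mean, and of the 10 tested 0 passed the limma test in either direction, with 5 lower at an unadjusted p under 0.05. Their median difference was -0.31. The E2F letters were in 24.4% of 41 promoters of the other replication genes. Of 36 mitosis and spindle genes, which act after S phase, 36 had a lower mean, 26 were tested and 10 fell, with a median of -0.83. The mean was lower in 41.9% of genes with any value above 0, and 3.7% of all genes tested fell. PRC1, which bundles the central spindle, was 56 and 56 in NonS and 28 and 24 in APC shRNA libraries (-1.08, limma adjusted p = 0.0441). TPX2, a spindle assembly factor, was 92 and 89 against 50 and 44 (-0.93, limma adjusted p = 0.0452), and the mitotic kinase PLK1 was 51 and 52 against 29 and 25 (-0.91, limma adjusted p = 0.0452). The promoters of the mitosis and spindle genes held the E2F letters in 10.0% and the CCAAT letters in 80.0% of 30.

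The Wnt target genes went the other way. Of 11, 9 were tested and 8 rose in limma, against 4.33% of all genes tested, with a median difference of 2.92. The Wnt deacylase NOTUM was 1 and 1 in NonS and 108 and 168 in APC shRNA libraries (6.08, limma adjusted p = 0.0423), and the stem cell marker LGR5 was 3 and 2 against 10 and 8, under the filter. NKD1 and SP5 also rose, the former from 0 in both NonS libraries. Of the pair of Wnt targets that are known to drive cells through G1 into S phase, cyclin D1 (CCND1) rose, with 28 and 26 in NonS and 65 and 84 in APC shRNA libraries (1.42, limma adjusted p = 0.0465). MYC did not pass the test, with 114 and 89 against 85 and 65 (-0.43, limma adjusted p = 0.246). In the same libraries, higher CCND1 values stood beside lower values of E2F1 and the replication genes.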

How the data were processed

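RNA-Seq of 4 libraries was analysed: NonS I and II and APC shRNA I and II of HT-29 cells, grouped by their titles. Per the paper's methods, the authors filtered and trimmed the reads, mapped them to human assembly 38 (TopHat2), assigned them to GENCODE v29 genes (htseq-count) and compared the groups with DESeq2. The labels name hg19 instead. The kit marks the strand. For each gene and library the authors deposited a single whole number, treated here as a score of unstated scale. Among genes with a replicate sum of 10 to under 40, the score varied less than Poisson counts between replicates. Multiplied by transcript length in kb, its sums were nearly equal between libraries (980841 to 984873). The number of reads behind a value is thus unknown. A table of the authors' own comparison (mean, fold change and adjusted p) was not used.

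Because the values were not taken as counts, no count model was run. Log2(value + 1) of 5376 genes with a mean of at least 10 entered limma 3.58.1 (R 4.3.3, lmFit, eBayes with a mean-variance trend, prior degrees of freedom 1.14) to compare the groups, with Benjamini-Hochberg adjustment over all of them, two-sided, with no further scaling and no replicate block, and called at an adjusted p under 0.05. Summaries used Python 3.11.15 and pandas 2.3.3. The procedure was run on simulated data whose errors were independent between libraries. Same-numbered libraries here deviated together, so that run cannot show how far these p-values hold. The p-values measure the spread between these libraries.

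The members and lists were chosen with earlier results of these data known, so no test over a list was run. Members called and, in each of the 9 groups, the tested members with the highest and lowest difference were named with full statistics. Of the other lists, the called genes with the largest change and AXIN2, NOTUM, LGR5, MYC and CCND1 were named. CHTF8, RNASEH2C, ASF1A, MCM9, NASP, NKD1, SP5 and the members described by values alone were named after their values were seen. Positions and GC content came from GENCODE v29 (19502 of 19729 genes), and promoters from RefSeq (GRCh38.p14), with coordinates counted from 1. Alternatives covered scaling, filters, the pseudocount, moderation, GC content, a replicate block, thresholds and each library left out.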

Additional observations from a re-analysis of the deposited data

How the results depend on the processing

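Across all alternatives, 0 members were called higher and the median difference of the tested members stayed below 0, but the number of single calls moved widely. Against 16 members called lower in limma, 26 were called when scaled to equal totals and 26 with upper-quartile scaling, 27 with robust moderation, 28 with GC content correction, 32 at an adjusted p under 0.1, and 0 at the study's thresholds (over 4-fold, adjusted p under 0.01), which no gene could pass because adjusted p-values began at 0.0423 in this fit. With median-of-ratios scaling 24 were called. Fewer, 12, were called with a mean of at least 8, and 12 of 31 tested with at least 10 in every library, a filter that removes the members that passed through NonS alone. With each library left out in turn, the members called ranged from 0 to 0, the lowest adjusted p of a member from 0.148 to 0.208 and the genes called lower or higher from 0 to 0, although 1119 to 1330 genes had an unadjusted p under 0.05. With 1 library left in a group, the lone library is assumed to vary like those of the other group. For the other moves the cause was not tested.

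The replicate numbers pair the libraries by name alone, since no source says that a number marks a shared batch. Deviations from the group means were correlated between same-numbered libraries (0.724 over all genes tested, 0.782 over the tested members). The replicate block called 27 members, 500 genes lower and 523 higher, and with GC content correction 37 members, 1291 genes lower and 1175 higher.

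Over all genes, 199 lower and 233 higher became 305 lower with median-of-ratios scaling, 369 lower when scaled to equal totals, 349 lower with upper-quartile scaling, 352 lower and 368 higher with robust moderation, 475 and 439 with GC content correction, 515 and 952 with every gene whose values sum to at least 1, 600 and 731 at an adjusted p under 0.1 and 0 and 0 at the study's thresholds. At least 10 in every library left 139 higher. With a mean of at least 20, 23 members were tested and 23 did not overlap, since fewer were tested. The share of all genes without overlap under this filter was not computed. A pseudocount of 5 gave a median difference of -0.63. Of 543 values of the named members under alternatives, 410 kept their side of the threshold, 88 lost it, 45 gained it and 0 changed direction. The subsets by GC content of at least 45% and without exons shared on the same strand were chosen after seeing the data. Rounding to whole numbers and an unknown depth limit all members with values under 10.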

Other observations

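Among the colonic markers, the galectin gene LGALS4 fell, with 557 and 646 in NonS and 175 and 147 in APC shRNA libraries (log2 difference -1.90, adjusted p = 0.0423 from limma). It was the only one of the 8 tested colonic markers that passed the test in either direction, and their median difference was 0.05. CEACAM5, a surface antigen of colonic epithelium, was 10 and 11 against 3 and 3, under the filter.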
